A study of Rattus norvegicus with 22 samples.

Results

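The genes described are regulators of skeletal muscle formation and markers of muscle that has lost its nerve, and 9 of 10 such genes had a probe on the array, out of 22436 gene names measured. They were found by their gene name on the array, with the brightest probe kept where a gene had several. The 9 genes are the satellite cell genes Pax7 and Cdh15, the myogenic factors Myf5, Myod1 and Myf6, the cofactor Mef2c, the secreted inhibitor Mstn, and the acetylcholine receptor subunits Chrna1 and Chrng. Myog is not analysed here, because no probe carried its name or accession.

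The tissue was tongue from 11 male F344 rats, an inbred strain, about 33 weeks old when it was taken. The rats had drunk water with 20 ppm of the carcinogen 4-nitroquinoline-1-oxide (4-NQO) over 10 weeks, and tissue was collected 23 to 26 weeks after exposure began. Each rat gave 1 piece of oral squamous cell carcinoma (OSCC) and 1 piece of adjacent phenotypically normal tongue, so that the normal pieces had seen the carcinogen too. The labels nevertheless enter the normal pieces at 0 ppm and call all 22 arrays untreated, and the deposited protocol was followed here.

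The tongue is a muscular organ, and its carcinomas grow from the surface epithelium into striated fibers. In adult muscle, satellite cells marked by Pax7 lie quiescent beside the fibers until injury, when they switch on Myf5 and Myod1, and later Myog, Myf6 and the genes of the contractile apparatus. Myostatin, the product of Mstn, is released by muscle and restrains its growth. The acetylcholine receptor of the innervated adult fiber holds an epsilon subunit (Chrne) at the nerve contact, whereas the gamma subunit (Chrng) is made by fetal and denervated fibers.

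Probes are 60-base oligonucleotides, and 3 are shown because they read through an open frame and because their genes took different courses in OSCC. The Myf5 probe (rn4, minus strand, chr7:46190314-46190373) and the Mstn probe (rn4, minus strand, chr9:45426831-45426890) both end on a stop codon in an otherwise open frame. The Cdh15 probe (rn4, plus strand, chr19:53192725-53192784) has an open frame along its whole length. All 3 are written 5′ to 3′ in the sense of the transcript.
Myf5: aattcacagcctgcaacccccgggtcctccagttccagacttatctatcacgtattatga
Mstn: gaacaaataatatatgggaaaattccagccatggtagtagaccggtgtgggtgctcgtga
Cdh15: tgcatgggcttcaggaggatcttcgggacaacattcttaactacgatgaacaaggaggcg

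The regulatory stretch before the start of the receptor genes is shown because both subunits are classical targets of the myogenic factors, which bind the E-box CANNTG. The RefSeq promoter table (GRCr8) held 7 of the 10 genes. In the 250 bases upstream of the start, CAGCTG, 1 of the E-box sequences and the same on both strands, occurred in 2 of these 7 genes, Chrna1 with 2 copies and Chrng with 1. Over 33469 rat promoters of that length, 12.0% held at least 1 copy and 1.04% held 2 or more. The general form CANNTG occurred in 5 of the 7 genes and in 65.5% of all promoters. Capitals mark CAGCTG in Chrna1 (minus strand, chr3:78877354-78877603) and in Chrng (plus strand, chr9:95325734-95325983).
Chrna1: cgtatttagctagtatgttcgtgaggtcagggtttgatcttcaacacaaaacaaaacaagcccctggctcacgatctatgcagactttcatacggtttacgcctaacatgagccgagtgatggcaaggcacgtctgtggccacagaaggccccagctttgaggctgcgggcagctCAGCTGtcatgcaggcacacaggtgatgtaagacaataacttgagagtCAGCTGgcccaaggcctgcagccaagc
Chrng: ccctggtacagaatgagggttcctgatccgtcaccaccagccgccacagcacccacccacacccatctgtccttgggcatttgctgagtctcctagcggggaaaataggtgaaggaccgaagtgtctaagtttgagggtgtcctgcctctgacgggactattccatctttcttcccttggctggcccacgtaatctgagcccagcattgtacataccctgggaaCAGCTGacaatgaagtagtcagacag

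Levels below are log2 signals relative to the 75th percentile of the same array, so that 0 is the level of a fairly bright probe, and a difference is OSCC minus normal in the same rat. To be called, a probe needed an adjusted p under 0.05 in the limma fit over all 30367 probes and at least a 2-fold change. The fit called 13.8% of probes, 2083 higher (6.86%) and 2118 lower (6.97%) in OSCC, and the list counts below are to be read against these shares. With arrays scaled to their median the counts were 1541 and 3154. The median difference of all probes was -0.24 with the first scaling and -0.44 with the second, and member differences are to be read against that shift. Between 48.42% and 65.5% of probes were well above background on an array. In bulk tissue, fewer cells of a type and less RNA per cell cannot be told apart.

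The arrays carried 2 features that touch every result. All 11 normal pieces and the OSCC pieces of animals 4 and 9 shared 1 scan day, the remaining 9 OSCC pieces had another, and no slide carried both tissues. With scan day as a term the limma fit called 3 of 30367 probes (0.00988%), and it called none of the 9 genes and none of the list genes named below. Its tissue difference rests on animals 4 and 9 alone, because in the other 9 rats tissue and scan day changed together. At an unadjusted p under 0.05 and 2-fold that fit called Mstn and Chrng, 2 of 9 genes higher against 6.33% of all probes, and none of the 9 lower against 25.2%. In addition, the pieces labelled OSCC of animals 21, 22 and 24 had a higher mean level of skeletal muscle genes than any normal piece. The mean level of 22 genes of the mature fiber, such as the creatine kinase Ckm and the fast troponins, ranged from 4.20 to 5.10 in the normal pieces. In these 3 OSCC pieces it was 5.23 to 6.02, and in the other 8 it was between -0.07 and 3.95. Single genes of the list differed in this. The highest level of Ckm was 9.28 in OSCC and 9.36 in normal tissue, and that of Actn3 8.19 and 1.85. Ttn and Jph1, also in the list, were well above background on 0 normal arrays and on 1 OSCC array each.

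Of the 9 genes, 2 were called higher in OSCC (Mstn and Chrng), against 6.86% of all probes called higher. Another 3 were called lower (Myf6, Mef2c and Cdh15), against 6.97% of all probes. Pax7, Myf5, Myod1 and Chrna1 were not called. Without animals 21, 22 and 24 the counts were again 2 higher and 3 lower, and they were the same 5 genes, but that fit called more of all probes, 8.69% higher and 14.1% lower.

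**Figure D1:**
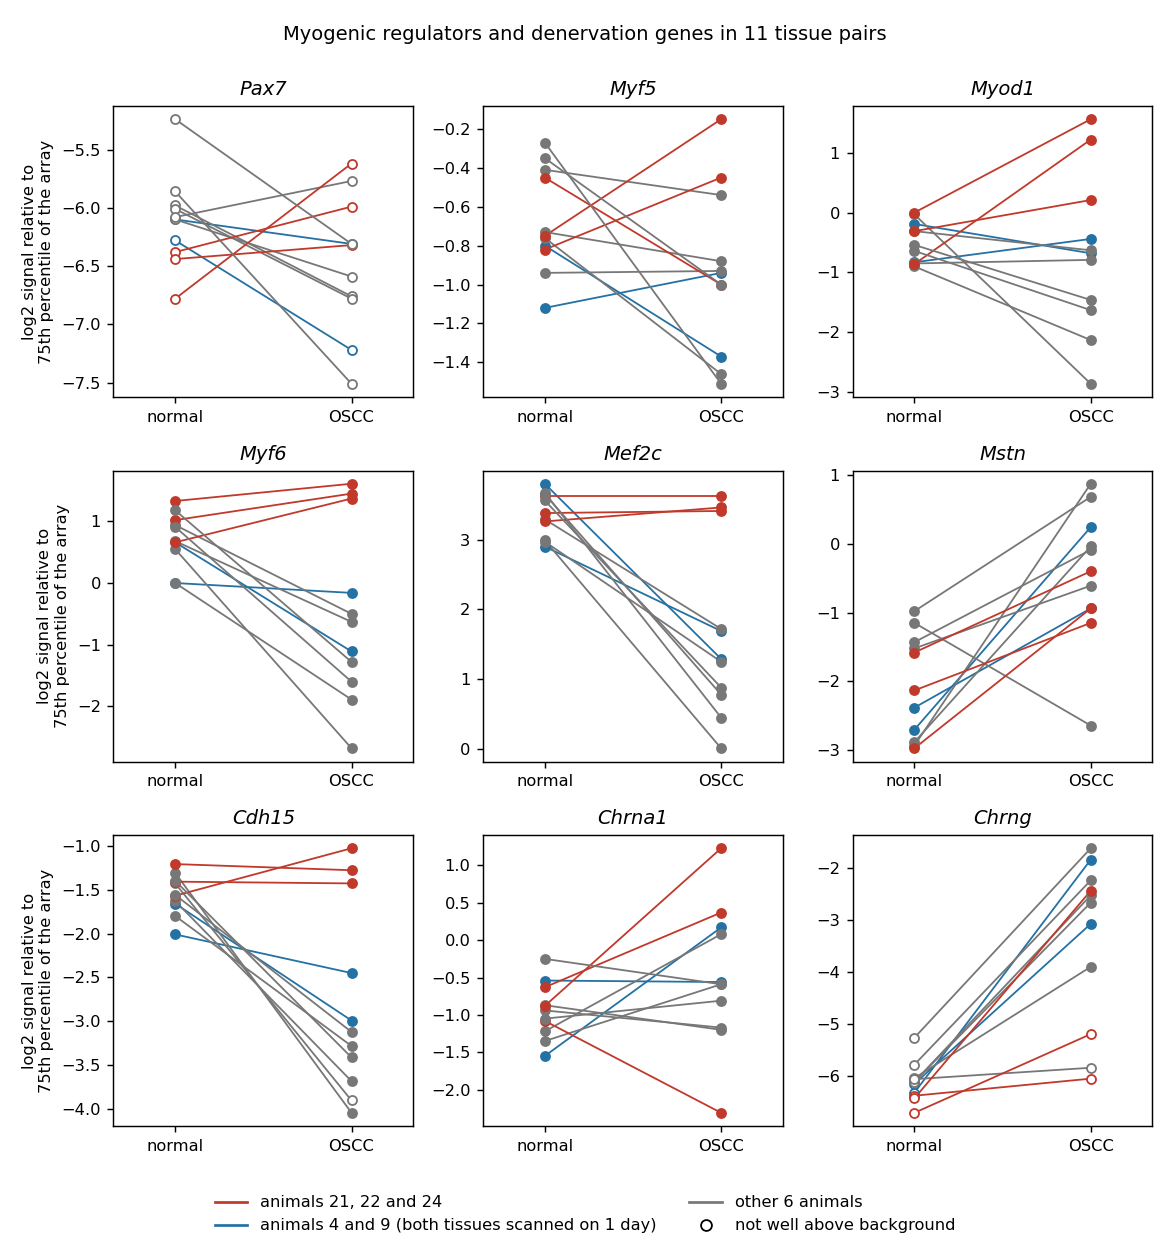
Log2 signal relative to the array's 75th percentile (vertical axis, scale differs by gene) in the normal and OSCC piece of each rat, 11 lines for each gene, with open circles for arrays on which the probe was not well above background. Mstn was higher in 10 of 11 pairs and Chrng was detected in 8 OSCC pieces and in no normal piece, while Myf6, Mef2c and Cdh15 were lower in most rats and differed by -0.06 to 0.71 in animals 21, 22 and 24, drawn in red.

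Pax7, the transcription factor that defines satellite cells, was too dim to be measured. Its probe was not well above background on any of the 22 arrays. Its levels lay between -6.78 and -5.24 in normal tissue and between -7.51 and -5.62 in OSCC, which are values at background and carry no order.

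Cdh15, M-cadherin, which holds satellite cells to their fiber and serves in myoblast fusion, was detected on all 11 normal arrays and on 10 OSCC arrays. Its level in normal tissue was lowest at -2.01, had a median of -1.56 and was highest at -1.21. In OSCC the lowest level was -4.04, the median -3.12 and the highest -1.03, and 8 of the 11 OSCC pieces lay below every normal piece. Cdh15 was lower in 10 of 11 pairs, with a difference of -1.24 ± 0.30 (SE, n = 11 pairs; limma adjusted p = 0.00772), a 2.36-fold fall. In animals 4 and 9, scanned within 1 day, the differences were -0.43 and -1.33. With background removed by normexp, which models signal and background together, the difference was -0.48 (adjusted p = 0.33) and the call was lost.

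Myf5 and Myod1, which commit cells to the muscle lineage, were well above background on all 22 arrays. Myf5 was nearly level, with normal pieces between -1.12 and -0.27 (median -0.75) and OSCC pieces between -1.51 and -0.15 (median -0.94). Its difference was -0.26 ± 0.16 (SE, n = 11 pairs), with a 95% confidence interval from -0.61 to 0.10 (limma adjusted p = 0.208), an interval that leaves out a 2-fold change in either direction. A further Myf5 probe failed to reach that level on every array.

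Myod1 had a like average difference but a far wider spread among the tumors. Normal pieces lay between -0.90 and 0.00 (median -0.54), and OSCC pieces between -2.86 and 1.56 (median -0.68), with 3 OSCC pieces above every normal piece and 4 below. The difference was -0.19 ± 0.37 (SE, n = 11 pairs; limma adjusted p = 0.679), with 5 pairs higher and 6 lower. It rose by 2.09 in animal 21 and by 1.57 in animal 24, and fell by 2.84 in animal 11.

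Myf6, the myogenic factor kept on in the nuclei of mature fibers, was well above background on all 22 arrays. Normal pieces lay between 0.00 and 1.33 with a median of 0.68, and OSCC pieces lay between -2.68 and 1.61 with a median of -0.63. The 3 OSCC pieces that lay above every normal piece were those of animals 21, 22 and 24, and the other 8 lay below every normal piece. The difference was -1.21 ± 0.37 (SE, n = 11 pairs; limma adjusted p = 0.0219), a 2.32-fold fall. In animals 4 and 9 it was -0.16 and -1.77. The call was lost without animal 25 or 26, with slide as a random block and with normexp (-0.89, adjusted p = 0.072), and the lowest and highest values over the 11 fits that left out 1 pair were -1.41 and -1.01.

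Mef2c, which works with the myogenic factors on the promoters of contractile genes, was well above background on all 22 arrays. Normal pieces lay between 2.90 and 3.80 (median 3.38) and OSCC pieces between 0.01 and 3.62 (median 1.29), with 8 OSCC pieces below every normal piece. The difference was -1.68 ± 0.36 (SE, n = 11 pairs; limma adjusted p = 0.00347), a 3.21-fold fall, and it was -2.34 without animals 21, 22 and 24. In animals 4 and 9 the differences were -1.21 and -2.50. Mef2c is also made by B cells and endothelium: 2 of 5 B cell genes were called higher and 0 of 8 endothelial genes were called, with median differences of 0.43 and -0.40. The mean level of the B cell genes ran from -4.67 to -3.70 in normal tissue and from -4.10 to -2.31 in OSCC, that of the endothelial genes from -0.15 to 0.20 and from -1.29 to 0.45. The part of these cells in the Mef2c result was not tested.

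Mstn, the growth inhibitor, was higher in OSCC and well above background on all 22 arrays. Its level in normal tissue was lowest at -2.97, had a median of -2.13 and was highest at -0.98. In OSCC the lowest level was -2.64, the median -0.40 and the highest 0.87, and 9 of 11 OSCC pieces lay above every normal piece. The difference was 1.60 ± 0.38 (SE, n = 11 pairs; limma adjusted p = 0.00637), a 3.04-fold rise. Mstn was higher in 10 of 11 pairs, and in animal 17 it fell by 1.49. The rise was present in animals 4 and 9 (2.94 and 1.44) and in animals 21, 22 and 24 (2.02, 0.97 and 1.18).

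Chrna1, the alpha subunit that every muscle acetylcholine receptor contains, varied among tumors without a common direction. Normal pieces lay between -1.55 and -0.25 (median -0.94) and OSCC pieces between -2.31 and 1.23 (median -0.59), with 4 OSCC pieces above and 1 below every normal piece. The difference was 0.45 ± 0.28 (SE, n = 11 pairs), with a 95% confidence interval from -0.16 to 1.07 (limma adjusted p = 0.197). It was 2.12 in animal 22 and -1.23 in animal 21, although the mean level of the muscle genes in both OSCC pieces lay above that of every normal piece.

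Chrng, the fetal gamma subunit, was not well above background on any of the 11 normal arrays and was well above it on 8 of 11 OSCC arrays. In normal tissue its values, all of them the software's placeholders for a signal at background, lay between -6.72 and -5.27. In OSCC they lay between -6.06 and -1.61 with a median of -2.66, and the 8 pieces with a detected signal lay above every normal value. The measured means were -6.13 in normal tissue and -3.40 in OSCC. Normal tissue thus gives no measured level. Against the dimmest signal still well above background on each normal array, the OSCC mean was 1.41-fold higher. This is not a strict lower limit, because an undetected probe can lie above that signal and the OSCC mean includes 3 undetected pieces. The fitted difference of 2.74 (limma adjusted p = 0.000545) rests on those placeholders, and with normexp it was 0.87 (adjusted p = 0.024), below the 2-fold threshold. The 3 OSCC pieces in which Chrng was not well above background were those of animals 17, 21 and 24, and in these rats neither tissue gives a measured level. In the OSCC pieces of animals 4 and 9, scanned on the day of the normal pieces, Chrng was detected at -1.83 and -3.07.

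**Figure D2:**
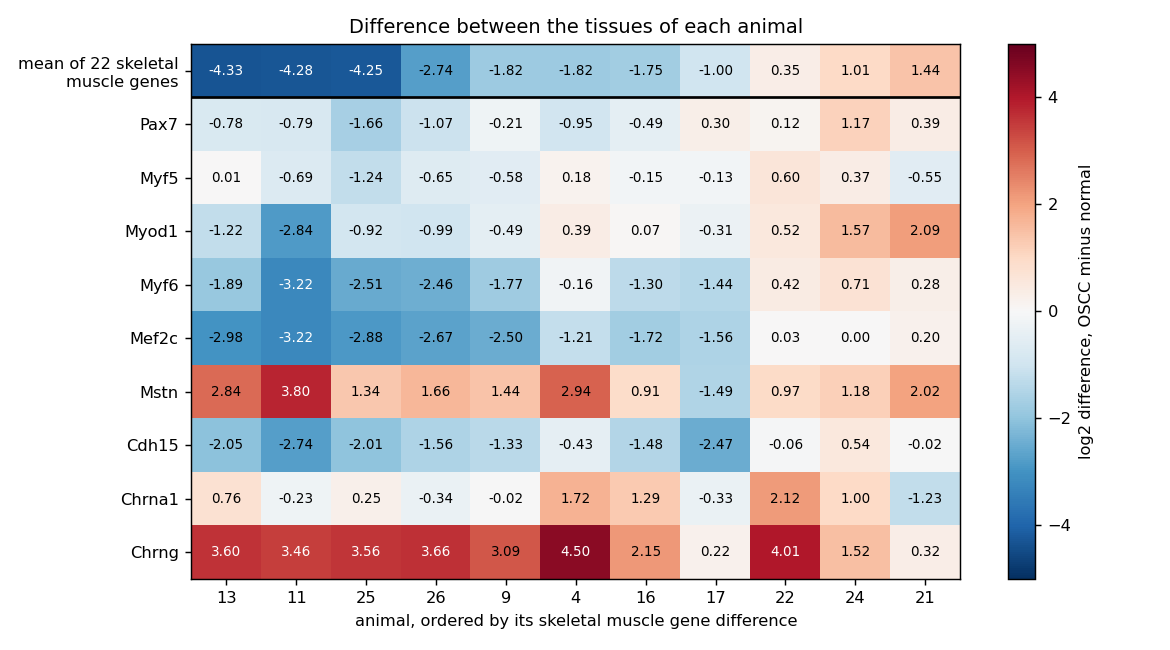
Log2 difference of OSCC minus normal for each gene (rows) in each rat (columns, ordered by the mean difference of 22 skeletal muscle genes in the top row), on a colour scale from blue for lower to red for higher. Myf6, Mef2c and Cdh15 pass from blue to near 0 as the top row does, whereas Mstn is red in 10 columns. The Chrng row is set against placeholder values in normal tissue, so its sizes are not measured differences.

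The fiber genes set the comparison for the members. Of 22 mature skeletal muscle genes 16 were called lower and 0 higher, with a median difference of -2.0. The largest falls were those of the M-line protein Myom1 (-3.03), the Z-disc protein Ldb3 (-2.98) and its neighbor Myoz1 (-2.64). Mean differences of the list ran from -4.33 in animal 13 to 1.44 in animal 21.

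How a member's difference moved with that of the fiber genes from rat to rat was examined by Pearson correlation with 100000 permutations, 2-sided, and adjustment over the 9 relations. Where a gene's differences left a gap wider than 30% of their range, r was taken within the larger cluster. Myf6 followed the fiber genes (r = 0.89, rho = 0.88, n = 11 pairs, permutation p = 0.00044, adjusted p = 0.002), and so did Cdh15 (r = 0.82, rho = 0.75, n = 11 pairs, permutation p = 0.003, adjusted p = 0.0067). Myod1 did so in the 10 pairs without animal 11 (r = 0.92, rho = 0.94, permutation p = 0.00031, adjusted p = 0.002), and Mef2c in the 8 pairs without animals 21, 22 and 24 (r = 0.85, rho = 0.90, exact permutation p = 0.014, adjusted p = 0.025). The relation of Pax7 (r = 0.85, rho = 0.79, n = 11 pairs, permutation p = 0.00092, adjusted p = 0.0028) is one of values at background. A probe without a measured signal thus passed the same test, so that a pass alone does not show a relation of measured levels. Leaving out the 2 rats farthest from the median left r = 0.82 for Myf6, 0.67 for Cdh15, 0.84 for Myod1 and 0.75 for Mef2c. Without animals 21, 22 and 24 the r of Myf6, Cdh15 and Myod1 was 0.69, 0.44 and 0.76, with adjusted permutation p of 0.12, 0.33 and 0.12. Adjusted within that set, Mef2c also had p = 0.12, so that none of the relations passed without those rats. The r of Mef2c in 6 pairs, without the 2 farthest rats, had an exact permutation p of 0.062, and without animal 26 its adjusted p was 0.07.

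The other 4 genes did not pass that test. Values were r = 0.53 and rho = 0.52 for Myf5 (n = 11 pairs, adjusted permutation p = 0.12), r = 0.06 and rho = 0.06 for Chrna1 (n = 11 pairs, adjusted permutation p = 0.87), and r = -0.57 and rho = -0.45 for Chrng (n = 11 pairs, adjusted permutation p = 0.1), whose differences rest on placeholders as those of Pax7 do. For Mstn r was -0.48 and rho -0.48 in the 10 pairs without animal 17 (adjusted permutation p = 0.18). Leaving out the 2 farthest rats changed r to 0.68, 0.48, -0.24 and -0.57 in turn.

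**Figure D3:**
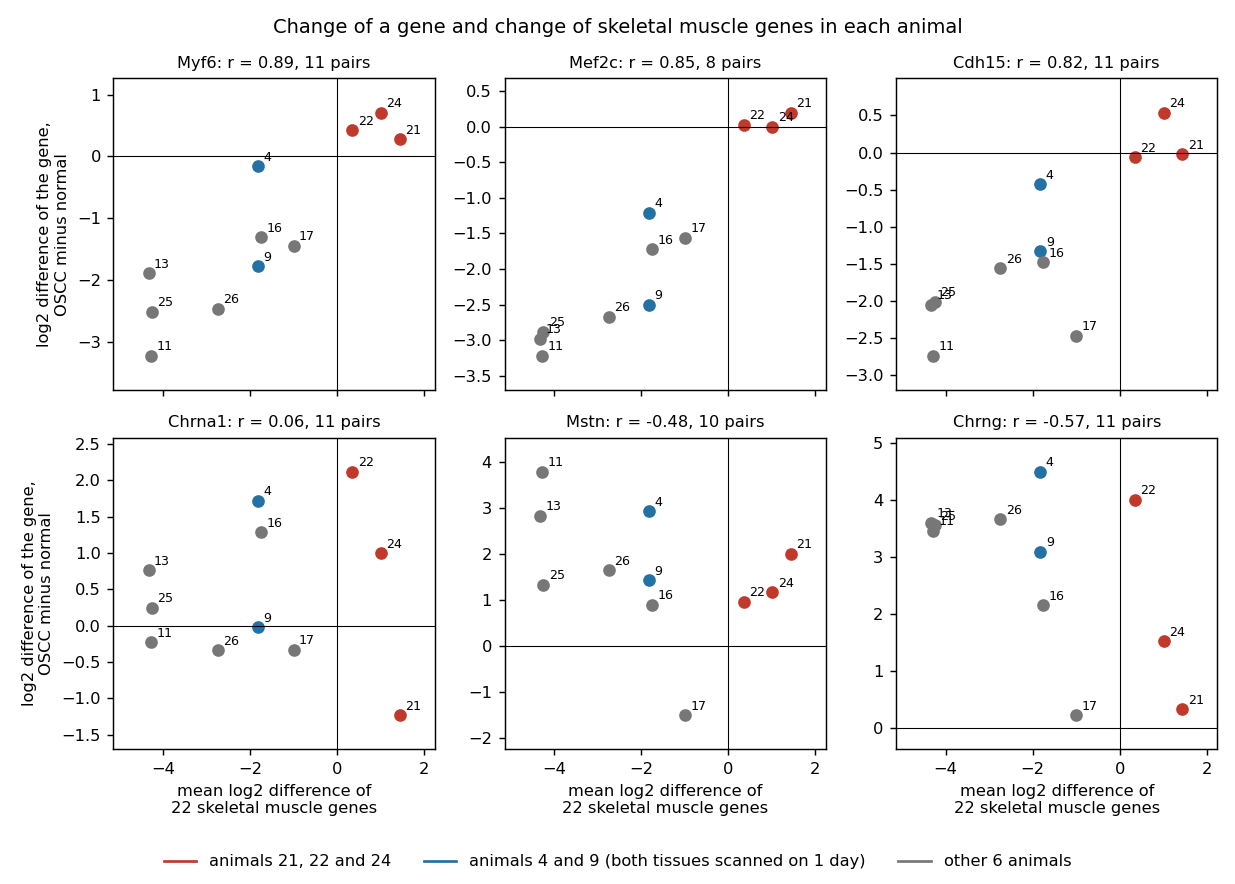
Log2 difference of 6 genes (vertical axes) against the mean log2 difference of 22 skeletal muscle genes (horizontal axes), 1 numbered point for each rat. Myf6, Mef2c and Cdh15 climb with the muscle genes, and the r printed for Mef2c leaves out the 3 red points and that for Mstn leaves out animal 17.

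Centered on the fiber genes of the same array, 6 of 9 members were called higher and 0 lower, against 60.3% of all probes called higher and 0.31% lower (60.7% in all), so that the members' share was near the background. The relative differences were 3.35 for Mstn and 2.20 for Chrna1, where the median of all probes was 1.5, and those of Pax7 and Chrng rest on values at background. Those of Mef2c (0.06), Cdh15 (0.51) and Myf6 (0.53) lay below that median and were not called.

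The genes of the neuromuscular junction, the contact at which nerve meets fiber, are the setting of the 2 receptor subunits. Of 15 such genes 7 were called lower and 1 higher, against 6.97% and 6.86% of all probes. Their median difference was -0.80, against -0.24 for all probes and -2.0 for the fiber genes. Centered on the fiber genes, 5 of the 15 were called higher and 0 lower, where 60.3% of all probes were called higher. The adult subunit Chrne was lower in all 11 pairs (-1.37 ± 0.23, SE; limma adjusted p = 0.00111). That direction is opposite to that of Chrng, which is set against placeholder values in normal tissue. Centered on the fiber genes, Chrne had a difference of 0.38 and was not called. The beta subunit Chrnb1 fell by 1.42 on the log2 scale, while the delta subunit Chrnd had a difference of -0.18 (adjusted p = 0.55). The largest falls of the list were those of Colq, the collagen tail that ties acetylcholinesterase to the junction, by 2.66, the agrin receptor Lrp4 by 1.74 and acetylcholinesterase Ache by 1.52. Nrg1, a growth factor released by nerve and by other cells, rose by 1.90. Musk, the kinase that organizes the junction, was at background on all 22 arrays. With normexp 4 of the 15 genes were called lower, and Chrne (-0.86) and Colq (-1.02) were not.

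Schwann cell and nerve genes moved with these. Of 8 such genes 7 were called lower and 0 higher, against 6.97% and 6.86% of all probes. Their median difference was -1.55, against -2.0 for the fiber genes. Centered on the fiber genes, 1 of the 8 was called higher and 0 lower, where 60.3% of all probes were called higher. The mean level of the list ranged from 0.11 to 0.79 in normal pieces and from -2.20 to 0.71 in OSCC. The part of nerve in the differences of Chrng, Chrne and Mstn was not tested.

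Genes known to respond when muscle loses its nerve did not move as 1 group. Of 19 genes 3 were called higher and 3 lower, against 6.86% and 6.97% of all probes. The median difference was -0.24, that of all probes. Among those that rose were Runx1, a transcription factor that protects denervated fibers from wasting (1.56), and Foxo3, an activator of atrophy genes (1.19). Gdf5, a ligand that slows wasting after nerve loss, was called higher, with a fitted difference of 2.52. It was at background on all normal arrays and well above it on 7 OSCC arrays, so that 2.52 is not a measured size. Sln, an inhibitor of the calcium pump, fell by 2.81, the potassium channel Kcnn3 by 1.39 and the atrophy ubiquitin ligase Trim63 by 1.08. Centered on the fiber genes, Sln (-1.07), Kcnn3 (0.36) and Trim63 (0.66) were not called. In that fit 14 of the 19 genes were called higher and 0 lower, where 60.3% of all probes were called higher. The call of Trim63 (limma adjusted p = 0.0496) was lost when any of 8 rats was left out, and with normexp those of Foxo3 (0.55), Gdf5 (0.42), Kcnn3 (-0.89) and Trim63 (-0.76) were lost. The other atrophy ligase Fbxo32 (-0.17), Gadd45a (-0.24) and the adhesion molecule Ncam1 (0.61) were not called. All 8 macrophage and neutrophil genes were called higher, with a median difference of 2.05 and mean levels of -1.10 to 0.32 in normal pieces and 0.39 to 3.61 in OSCC. Runx1 and Foxo3 are expressed by leukocytes as well, and the part of these cells was not tested.

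Regenerating and embryonic muscle genes also moved both ways. Of 11 genes 2 were called higher and 3 lower, against 6.86% and 6.97% of all probes, with a median difference of -0.39. Embryonic myosin Myh3 rose by 2.86 (limma adjusted p = 0.000431, higher in 10 of 11 pairs) and the embryonic and cardiac troponin Tnnt2 by 2.54 (limma adjusted p = 0.000183, 11 of 11 pairs). The perinatal myosin Myh8 fell by 2.32, cardiac actin Actc1 by 1.90 and the cell cycle inhibitor Cdkn1c by 1.61. Myh8 had a mean level of 8.76 in normal tissue, near that of the fiber gene Ckm (8.74), where Myh3 had -2.94. Centered on the fiber genes, Myh8 (-0.57), Actc1 (-0.15) and Cdkn1c (0.14) were not called. The myostatin antagonist Fst had a difference of 0.90 (adjusted p = 0.038), under 2-fold, and was called without animals 21, 22 and 24 (1.38).

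**Figure D4:**
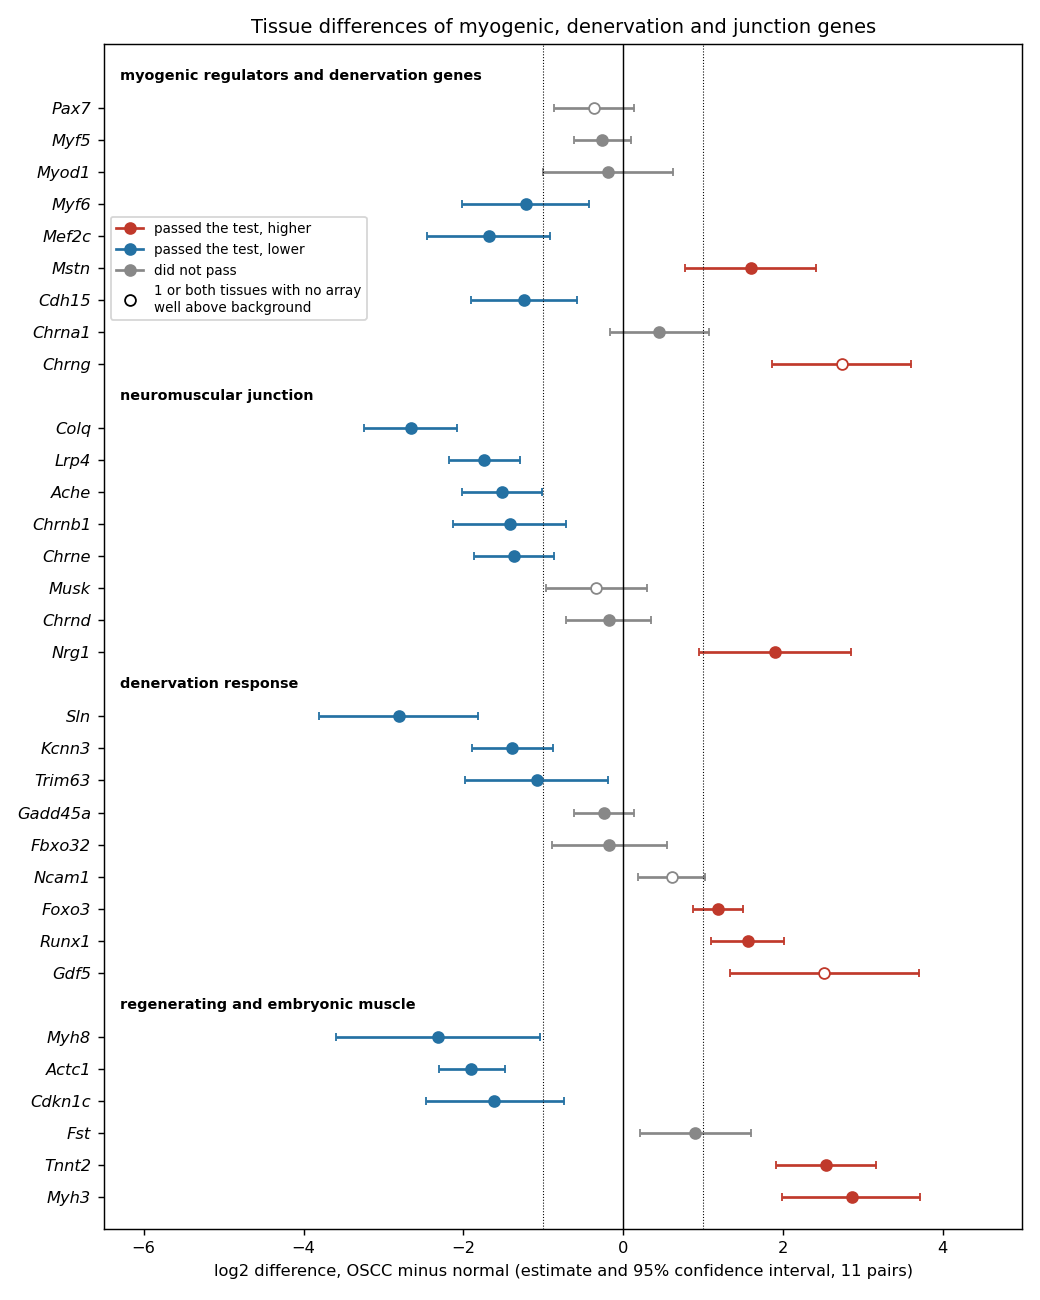
Log2 difference of OSCC minus normal (horizontal axis, point) with its 95% confidence interval over 11 pairs for the 9 genes and for named genes of 3 lists, dotted lines at 2-fold. Mstn, Myh3, Tnnt2 and Runx1 lie to the right of the 2-fold line, and Chrne, Colq, Mef2c, Myf6 and Cdh15 lie to the left of the other. Open circles, that of Chrng among them, rest on values at background in 1 or both tissues, so their positions are not measured sizes.

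Among 24 other regulators of myogenesis and satellite cells 2 were called higher and 0 lower, against 6.86% and 6.97% of all probes. Their median difference was -0.33, against -0.24 for all probes. The repressor of myogenic factors Msc (musculin), detected on 4 normal and 10 OSCC arrays, rose by 2.40 and was higher in 11 of 11 pairs. The receptor Met rose by 1.14, and Pax3, the embryonic relative of Pax7, had a difference of 0.60 (adjusted p = 0.0103). With normexp the differences of Msc (0.98) and Met (0.47) were under 2-fold. Without animals 21, 22 and 24 the fit called 8 of these 24 genes lower, against 14.1% of all probes in that fit. Msc is also expressed by B cells and Met by epithelium, and their part was not tested.

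Of 18 genes of the myostatin pathway 3 were called higher and 2 lower, against 6.86% and 6.97% of all probes, with a median difference of 0.35. The activin subunits Inhbb and Inhba, ligands that share a receptor with myostatin, rose by 3.27 and 2.37, and the matrix protein Dcn, which can hold myostatin, by 1.16. Inhbb was well above background on only 6 of 11 normal arrays. With normexp the rises of Inhbb and Inhba were 1.93 and 1.65, and both were still called. The receptor Acvr2b fell by 1.03 and Igsf1 by 2.32, calls that normexp (-0.72 and -0.90) did not make. The call of Acvr2b was also lost when any of 5 rats was left out (animals 9, 11, 13, 25 and 26). Fibroblast genes, Dcn among them, rose alongside, with 5 of 6 called higher and mean levels of 2.72 to 3.52 in normal pieces and 2.60 to 5.61 in OSCC, and their part was not tested.

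The genes whose differences over the 11 pairs were most like those of a detected member were sought among 11655 symbols, as a description without a test. Those nearest to Mef2c were Myadml2, Smarcd3 and Lmod2, the last a nucleator of actin filaments in striated muscle, and those nearest to Myf6 were Dusp27, Tmem38b and Slc4a1ap, each at r = 0.99. Myod1 was nearest to the calcium channel subunit Cacnb1, Dusp26 and the collagen Col22a1 of the muscle-tendon junction, each at r = 0.96. Cdh15 was nearest to Dnajb6 (r = 0.98), Vldlr (0.95) and RGD1307554 (0.95).

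Mstn, Chrna1 and Myf5 had other neighbors. Mstn was nearest to RGD1561238 (r = 0.96), RGD1560812 (0.92) and Arrdc3 (0.91), and Chrna1 to LOC686139 (0.90), Tsc22d1 (0.88) and Hmgn2 (0.86). Myf5 was nearest to Abhd10 (0.96), Bpnt1 (0.95) and the mitochondrial complex subunit Ndufs4 (0.94). Pax7 and Chrng were detected on too few arrays for this search.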

How the data were processed

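RNA of 11 OSCC pieces and of 11 phenotypically normal pieces was hybridized to one-color Agilent Rat GE 4x44K v3 arrays, 1 for each piece. The deposited intensity values were made by the authors with Agilent Feature Extraction (9.5.3.1 per the file headers). The background the files list as removed equals the fitted spatial surface on every spot. A multiplicative trend was then taken out, and signals not above background were replaced by placeholders. The authors also deposited a ratio of each signal to the 75th percentile of its array, used here as an alternative. Probe positions are those of rn4.

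Control spots and 9196 outlier spots were left out, the spots of a probe were combined as the mean of their log2 signals, and levels were set relative to the 75th percentile of the array. Arrays of 1 rat were paired by the animal number of the labels, since both tissues came from the same animal. The deviations of a rat's pieces from their tissue means had correlations of -0.21 to 0.24 (median -0.025). Rat and tissue were the terms of limma 3.58.1 in R 4.3.3, with Benjamini-Hochberg adjustment over 30367 probes. On simulated data with these arrays' spread, 77 of 100 probes shifted by 1.5 log2 units and 98 of 100 shifted by 3 were called. The number of arrays limits precision, as does the signal of dim genes relative to background.

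The named genes were the members, up to 3 called genes with the largest fall and rise in each list, a fixed set of junction, atrophy and embryonic genes, and the 3 symbols most like each member. Genes, lists and tests were chosen with earlier results of these data known. Genes of the lists described here that were not found were Myog, 3 mature muscle genes (Ryr1, Tcap, Neb) and 1 other regulator (Eya1). Also not found on the array were Mymk, Mymx, Myl6b, the B cell gene Cd79a and 2 myostatin pathway genes (Wfikkn2, Ltbp3). A further gene of the denervation list is not reported here and is left out of its counts. Alternatives changed scaling, background correction, the test, the pairs, slide and scan day.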

Additional observations from a re-analysis of the deposited data

How the results depend on the processing

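The counts and differences of the 9 members were recomputed with other settings. Background correction by normexp called 1701 probes in place of 4201, and 1 member higher (Mstn) and 1 lower (Mef2c). A filter on dim probes removed Chrng and left 1 member called higher. With scan day as a term 3 probes were called, 0 members higher and 0 lower. The tissue difference of that fit rests on 2 rats, so it cannot tell a scan day effect from the loss of pairs. Only these 2 rats, animals 4 and 9, had both tissues scanned on 1 day, and their single values stand beside the results with no test. Leaving out animals 21, 22 and 24 raised the count of called probes to 6924. Relative to the fiber genes, 6 members were called higher, 3 when the median of the fiber genes was used for centering, 7 with normexp, and between 3 and 6 when 1 pair was left out, with 3 each time without animal 4, 16, 25 or 26. Leaving out 1 pair gave 3649 to 4799 called probes, 2 members higher each time and 2 to 3 lower, where Myf6 was lost without animal 25 or 26. The fit without the replicate block, which ignores the pairing by rat, called 4227 probes, 2 members higher and 3 lower, and it changed no call of a member. Slide as a random block and the pairs scanned on different days each left 2 members called lower, without Myf6. Centering on the fiber genes turned the differences of Myf6 (0.53), Cdh15 (0.51) and Mef2c (0.06) to above 0, none of them called. In the other settings the direction of the 5 called members held, with differences of 1.12 to 2.19 for Mstn, 0.87 to 3.80 for Chrng (against background values in normal tissue), -1.85 to -0.89 for Myf6, -2.34 to -1.59 for Mef2c and -1.76 to -0.48 for Cdh15. Of the uncalled members, Pax7, at background throughout, was higher by 0.12 after quantile normalization, and Myod1 by 0.07 without animal 11.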
